A study of Homo sapiens with 4 samples.

Results

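The cadherin-catenin adhesion system and the related epithelial adhesion molecule EPCAM were described in MDA-MB-468 cells depleted of SASH1. The 8 genes were chosen by name: E-cadherin CDH1, N-cadherin CDH2, P-cadherin CDH3, cadherin-11 CDH11, alpha-catenin CTNNA1, beta-catenin CTNNB1, p120-catenin CTNND1 and EPCAM. Of these 8, 7 had a row among the 26518 genes of the table, CTNND1 was not analysed here, and 5 reached the mean of 1 TPM needed for testing.

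MDA-MB-468 is an established human triple-negative breast cancer line of epithelial origin. The 2 shSASH1 libraries came from cells infected with a lentiviral hairpin against SASH1, a SAM and SH3 domain scaffold protein, and the 2 shControl libraries from cells infected with the pGIPZ control vector. Both lines passed puromycin selection, so both carry an integrated vector. The labels speak of stable clones without saying how many clones or hairpins there were or whether the 2 libraries of a group were separate cultures. What the p-values weigh is therefore the variation among these libraries, which may be technical.

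Values are TPM, in which the reads of a gene are divided by its length and set against the library total. SASH1 itself stood at 3.65 and 4.01 TPM in the shSASH1 libraries, against 15.0 and 13.0 TPM in the shControl libraries, and fell by 1.63 on the log2(TPM + 1) scale (limma adjusted p = 0.00391). Read numbers rebuilt from TPM ranged from 19566651 to 24383873 per library. Epithelial keratins were abundant in every library, with KRT8 at 880 and 755 TPM in shSASH1 and 857 and 900 TPM in shControl. Markers of other cell types were low. The 6 leukocyte markers summed to 1.30 and 2.85 TPM in shSASH1 and to 0.768 and 1.34 TPM in shControl, the 6 endothelial ones to 3.94 and 3.62 TPM in shSASH1 and to 4.74 and 3.799 TPM in shControl, and the 8 fibroblast ones to 9.47 and 11.6 TPM in shSASH1 and to 7.27 and 6.56 TPM in shControl. Nearly all of the fibroblast sum was COL1A1, while COL1A2 and LUM were listed at 0 throughout. The part of such cells in the results was not tested.

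Classical cadherins are transmembrane proteins that hold neighbouring cells together through calcium-dependent contacts of their outer domains. Their tails bind p120-catenin, which keeps them at the membrane, and beta-catenin, which in turn binds alpha-catenin and so reaches actin. Beta-catenin also has a second life as a coactivator of TCF/LEF factors in Wnt signalling, where a destruction complex otherwise marks it for degradation. E-cadherin and EPCAM are typical of epithelia, P-cadherin of basal and myoepithelial cells of the breast, and N-cadherin and cadherin-11 of mesenchymal cells.

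No gene of the group passed the test. With limma on log2(TPM + 1), 0 of the 5 tested genes had an adjusted p under 0.05, whereas 32.0% of all 14458 tested genes did. At an unadjusted p under 0.05 there were 2 of 5, CDH1 and EPCAM, against 46.3% of all tested genes. The 2 groups did not overlap in 4 of the 5, against 73.6% of all tested genes. The median log2 change was -0.02 for the 5 genes and 0.06 for all tested genes. Another test, limma's voom on reads rebuilt from TPM, called 2 of the 5, CDH1 (log2 change -0.54, adjusted p = 0.0356) and EPCAM (-0.25, adjusted p = 0.0220). EPCAM also passed after quantile normalization (-0.21, adjusted p = 0.0468) and with genes centred on their 20 Mb chromosome window (-0.29, adjusted p = 0.0276).

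E-cadherin CDH1 (chromosome 16, 68737225 to 68835548, hg38, plus strand) was the most abundant of the 4 cadherins. It had 66.5 and 48.2 TPM in shSASH1 cells, against 76.9 and 80.4 TPM in shControl cells. Both shSASH1 libraries lay below both shControl libraries, with replicate 2 the lowest of all. The means were 57.3 ± 12.9 TPM in shSASH1 and 78.7 ± 2.47 TPM in shControl (SD, n = 2 each), a ratio of 0.728. The log2 change was -0.47 ± 0.16 (SE; 95% interval -0.90 to -0.04) with limma adjusted p = 0.0913. In bulk RNA, fewer cells carrying a transcript and less transcript per cell cannot be told apart.

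P-cadherin CDH3 (chromosome 16, 68636189 to 68722616, plus strand) lies beside CDH1, with 14608 bases between the 2 genes. Its values were 27.4 and 41.5 TPM in shSASH1, against 25.03 and 24.9 TPM in shControl. Again it was shSASH1 replicate 2 that stood farthest from the control libraries, here above them, and replicate 1 exceeded them only a little. The log2 change was 0.42 ± 0.20 (95% interval -0.12 to 0.96; limma adjusted p = 0.178). The protein-coding genes on either side did not pass: ZFP90, before CDH3, had 13.0 and 11.5 TPM in shSASH1 and 12.7 and 12.5 TPM in shControl. TANGO6, after CDH1, had 3.66 and 2.98 TPM in shSASH1 and 4.22 and 4.28 TPM in shControl. The 137 tested genes of the 20 Mb window around both cadherins had a median log2 change of 0.08.

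The libraries of depleted cells differed from each other in both genes. As replicate 2 minus replicate 1 of shSASH1, on log2(TPM + 1), CDH1 differed by -0.46 and CDH3 by 0.58, whereas the median absolute difference over all tested genes was 0.18 and the 90th percentile 0.60. In shControl the same differences were 0.06 for CDH1 and -0.01 for CDH3. The plot of values by library shows this spread beside the narrower control pairs.

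**Figure D1:**
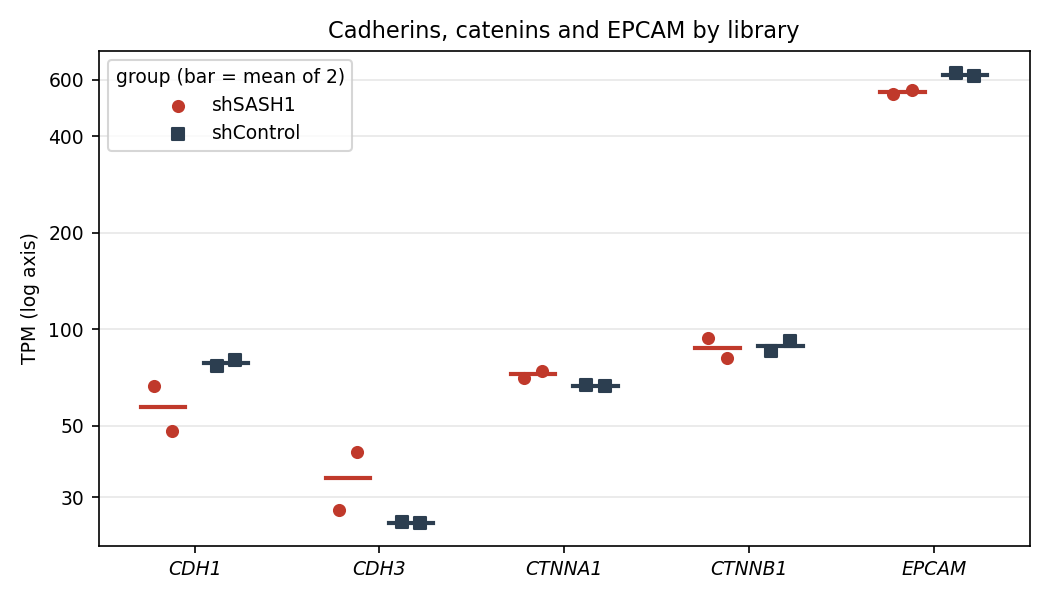
TPM of the 5 expressed genes on a log axis, with 1 point per library and a bar at the mean of 2, shSASH1 as circles left of shControl as squares. For CDH1 the circles lie at 66.5 and 48.2 TPM below the squares at 76.9 and 80.4 TPM, for CDH3 they lie above, and for CTNNB1 the groups overlap.

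Of the 4 listed cadherins CDH1 and CDH3 made up nearly all transcript, and their proportions were set side by side on the TPM scale. E-cadherin was 70.8% and 53.8% of the summed TPM of the 4 cadherins in shSASH1, against 75.5% and 76.3% in shControl. The CDH1 to CDH3 ratio was 2.42 and 1.16 in shSASH1, against 3.07 and 3.23 in shControl. The 2 groups did not overlap, and shSASH1 replicate 2 was the library nearest to equal amounts. The mean share was 62.3 ± 12.1% in shSASH1 and 75.9 ± 0.628% in shControl (SD, n = 2 each), a difference of -13.6 percentage points. An exact two-sided permutation test gave p = 0.333, the smallest that 2 against 2 libraries allow. Without shSASH1 replicate 2 the difference was -5.10 points, and without replicate 1 it was -22.1 points. Another classical cadherin, CDH24, was about as abundant as CDH3, with 32.9 and 41.6 TPM in shSASH1 and 36.6 and 34.2 TPM in shControl (limma adjusted p = 0.738). With CDH24 in the sum, a choice made after seeing the data, the CDH1 share was 52.4% and 36.7% in shSASH1, against 55.5% and 57.6% in shControl. The summed TPM of the 4 cadherins was 93.9 and 89.6 in shSASH1 and 102 and 105 in shControl.

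N-cadherin CDH2 (chromosome 18, 27950966 to 28177446, minus strand) was listed at 0 in both shSASH1 libraries, and at 0 and 0.0314 TPM in the shControl libraries. That last value corresponds to 1 rebuilt read. Cadherin-11 CDH11 (chromosome 16, 64943753 to 65126112, minus strand) was also listed at 0 in both shSASH1 libraries, and at 0 and 0.0110 TPM, again 1 rebuilt read, in shControl. A count of 0 allows up to 3 reads, or 0.0923 and 0.116 TPM of CDH2 and 0.0342 and 0.0428 TPM of CDH11 in the shSASH1 libraries. These limits cover counting error only and rest on rebuilt reads. Both mesenchymal cadherins were therefore at or near 0 in depleted and control cells alike, and no fold was computed. Next to CDH2 lie CHST9, with 1.18 and 1.91 TPM in shSASH1 and 0.296 and 0.190 TPM in shControl, and the desmosomal cadherin DSC3, 2812561 bases away. DSC3 fell, with 4.10 and 2.90 TPM in shSASH1 against 22.3 and 22.4 TPM in shControl (log2 change -2.39, limma adjusted p = 0.00308).

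**Figure D2:**
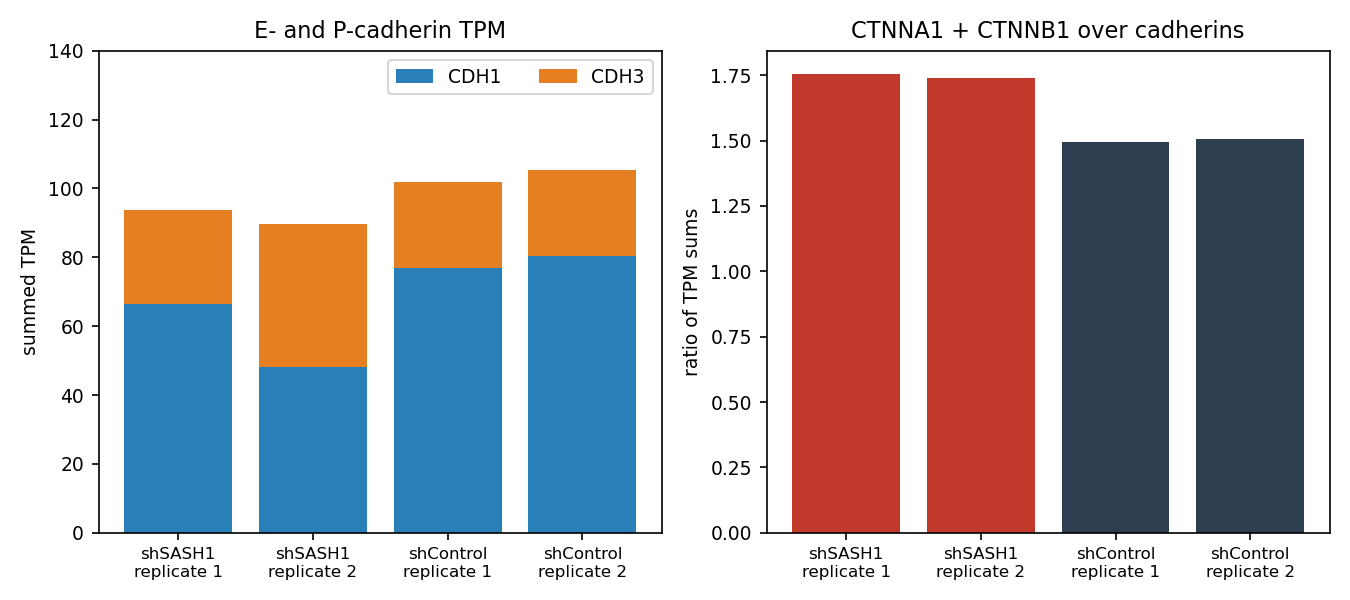
Left, summed TPM of CDH1 and CDH3 stacked for each library; right, the ratio of CTNNA1 plus CTNNB1 TPM to the TPM of the 4 cadherins, with shSASH1 libraries first. The CDH3 portion is largest in shSASH1 replicate 2, and the ratios are 1.76 and 1.74 in shSASH1 and 1.49 and 1.51 in shControl.

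Beta-catenin CTNNB1 (chromosome 3, 41194741 to 41260096, plus strand), the tail-binding and Wnt-signalling catenin, had 94.0 and 81.4 TPM in shSASH1 and 85.4 and 92.2 TPM in shControl. The groups overlapped. Its log2 change was -0.02 ± 0.09 (limma adjusted p = 0.883), with a 95% interval of -0.27 to 0.23. The interval includes small changes in either direction, and the sign was positive when shControl replicate 2 (0.035) or shSASH1 replicate 2 (0.083) was left out.

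Alpha-catenin CTNNA1 (chromosome 5, 138610967 to 138935034, plus strand), the link to actin, had 70.8 and 74.4 TPM in shSASH1, against 66.9 and 66.6 TPM in shControl. All shSASH1 values exceeded all shControl values, by a small margin. The log2 change was 0.12 ± 0.06 (95% interval -0.04 to 0.28; limma adjusted p = 0.198), 0.06 after median-of-ratios scaling and 0.01 after quantile normalization. The chaperone gene HSPA9 before CTNNA1 had 270 and 282 TPM in shSASH1 and 270 and 262 TPM in shControl, and ZNF621 before CTNNB1 had 23.0 and 20.9 TPM in shSASH1 and 27.0 and 26.8 TPM in shControl. The antisense neighbour of CTNNA1, LRRTM2, which lies inside the gene, was at no more than 0.975 TPM, and the ULK4 gene that overlaps CTNNB1 on the other strand at no more than 2.92 TPM. With strand use unstated, the reads of such overlapping pairs cannot be separated.

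The summed TPM of CTNNA1 and CTNNB1 was also set against that of the 4 cadherins. This ratio was 1.76 and 1.74 in shSASH1, against 1.49 and 1.51 in shControl. The means were 1.75 ± 0.0127 in shSASH1 and 1.501 ± 0.00992 in shControl (SD, n = 2 each), a difference of 0.25 with an exact two-sided permutation p = 0.333, the smallest possible. The sum of CTNNA1 and CTNNB1 overlapped between groups, at 165 and 156 in shSASH1 and 152 and 159 in shControl. The separation of the groups did not hold once JUP, a further catenin more abundant than their sum, was added to the catenins and CDH24 to the cadherins, a choice made after seeing the data. That ratio was 3.35 and 2.79 in shSASH1 and 2.84 and 2.87 in shControl, which overlap (exact two-sided permutation p = 1.0). With CDH24 alone added it was 1.30 and 1.19 in shSASH1 and 1.10 and 1.14 in shControl. The ratio also depends on the gene lengths used, and for the original genes on rebuilt reads not divided by length it was 3.004 and 2.93 in shSASH1 and 2.55 and 2.59 in shControl.

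**Figure D3:**
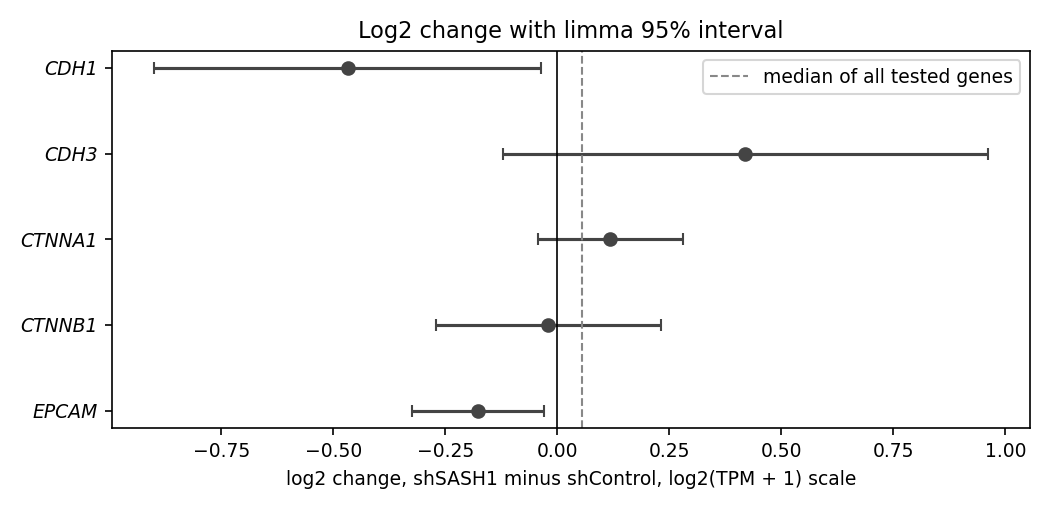
Log2 change of the 5 tested genes, shSASH1 minus shControl on log2(TPM + 1), with limma's 95% interval as a bar and the median of all tested genes (0.06) as a dashed line. The intervals of CDH3, CTNNA1 and CTNNB1 include 0; those of CDH1 and EPCAM end at -0.04 and -0.03, before adjustment over 14458 genes.

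EPCAM (chromosome 2, 47345158 to 47387601, plus strand), a homotypic adhesion molecule of epithelia, was by far the most abundant of the group. It ranked 158 among protein-coding genes in shSASH1 and 139 in shControl. Its values were 543 and 559 TPM in shSASH1, against 630 and 616 TPM in shControl. Both pairs were tight and did not overlap. The means were 551 ± 11.4 TPM in shSASH1 and 623 ± 9.89 TPM in shControl (SD, n = 2 each), a ratio of 0.884, with a log2 change of -0.18 ± 0.06 (95% interval -0.32 to -0.03; limma adjusted p = 0.0724). The neighbouring calmodulin gene CALM2 stood at 312 and 263 TPM in shSASH1 and 261 and 268 TPM in shControl.

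Partners of EPCAM in the membrane were read beside it. The tetraspanin CD9 fell, with 117 and 113 TPM in shSASH1 against 160 and 157 TPM in shControl (log2 change -0.45, limma adjusted p = 0.00779). Claudin-7 (CLDN7), a direct partner of EPCAM, had 309 and 331 TPM in shSASH1 and 275 and 275 TPM in shControl (adjusted p = 0.0544).

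Gene lists around the group were read against the background, in which 18.8% of tested genes were called higher in shSASH1 and 13.3% lower, with 2712 and 1918 genes. That split was 2280 higher and 2434 lower after quantile normalization, 2537 and 2809 with voom on rebuilt reads, and 1858 and 1863 with centring on windows. No list was tested as a set.

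Among 31 other cadherins and protocadherins 8 were tested, of which 3 rose and 2 fell (median 0.03). The other 23 were under a mean of 1 TPM. The share of tested genes called was 62.5%, against 32.0% of all tested genes. The protocadherin PCDH7 rose, with 6.63 and 4.83 TPM in shSASH1 against 1.21 and 1.28 TPM in shControl (log2 change 1.57, limma adjusted p = 0.00930). The large cadherin FAT1 also rose (0.36), though not after quantile normalization (0.25, adjusted p = 0.0536) or without a variance trend (adjusted p = 0.0563). So did the seven-pass cadherin CELSR3 (0.85), though not with no filter on low values (adjusted p = 0.0691). Its relative CELSR2 fell (78.1 and 86.6 TPM in shSASH1 against 135 and 135 TPM in shControl; log2 change -0.71, adjusted p = 0.00571), as did FAT2 (-1.11). FAT2, at 0.482 and 0.525 TPM in shSASH1, reached the level tested only through shControl, at 2.33 and 2.17 TPM. Non-classical members of the superfamily thus included called genes in both directions.

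Of 21 tested catenin relatives and adherens junction plaque genes, 8 rose and 0 fell (median 0.19). The share called was 38.1%, near the 32.0% of all tested genes. LIMA1, an actin-binding protein that joins the alpha-catenin complex, had 90.04 and 96.4 TPM in shSASH1, against 36.1 and 34.1 TPM in shControl (log2 change 1.38, limma adjusted p = 0.00216). The kinesin KIFC3 (1.61), vinculin VCL (0.52) and alpha-actinin ACTN1 (0.57) also rose, but these calls were not kept under every setting. With no filter on low values KIFC3 had adjusted p = 0.0510, VCL 0.0576 and ACTN1 0.0711. VCL and ACTN1 also missed the threshold after median-of-ratios scaling (adjusted p = 0.0676 and 0.0762), after quantile normalization (0.0538 and 0.0685) and without a variance trend (0.0673 and 0.0775), and ACTN1 with centring on windows (0.0847). The count was 4 higher and 1 lower under that scaling, 3 and 0 without a variance trend, 4 and 3 after quantile normalization, and 7 and 6 with voom on rebuilt reads. Plakoglobin JUP, the closest relative of beta-catenin, had 260 and 210 TPM in shSASH1 and 241 and 242 TPM in shControl, and did not pass (adjusted p = 0.775). The p120 relatives ARVCF (-0.21, adjusted p = 0.108) and PKP4 (0.15, adjusted p = 0.113) did not pass either.

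Nectins, immunoglobulin-type molecules that act at the same junctions, were tested together with related genes. Of 8, 1 rose and 3 fell (median -0.19). The 4 called of 8 are a larger share than the 32.0% of all tested genes. Of all tested genes 18.8% were called higher and 13.3% lower. NECTIN1 fell (63.0 and 69.5 TPM in shSASH1, against 98.7 and 105 TPM in shControl; log2 change -0.62, limma adjusted p = 0.00869), as did CADM4 (-0.83, adjusted p = 0.00329) and ALCAM (-0.21, adjusted p = 0.0488), the last missing the threshold in 5 of 10 alternatives that kept all libraries (adjusted p up to 0.118). The junctional adhesion molecule F11R rose (0.57, adjusted p = 0.00834), but at 0.16 (adjusted p = 0.158) it did not pass with genes centred on their chromosome window.

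**Figure D4:**
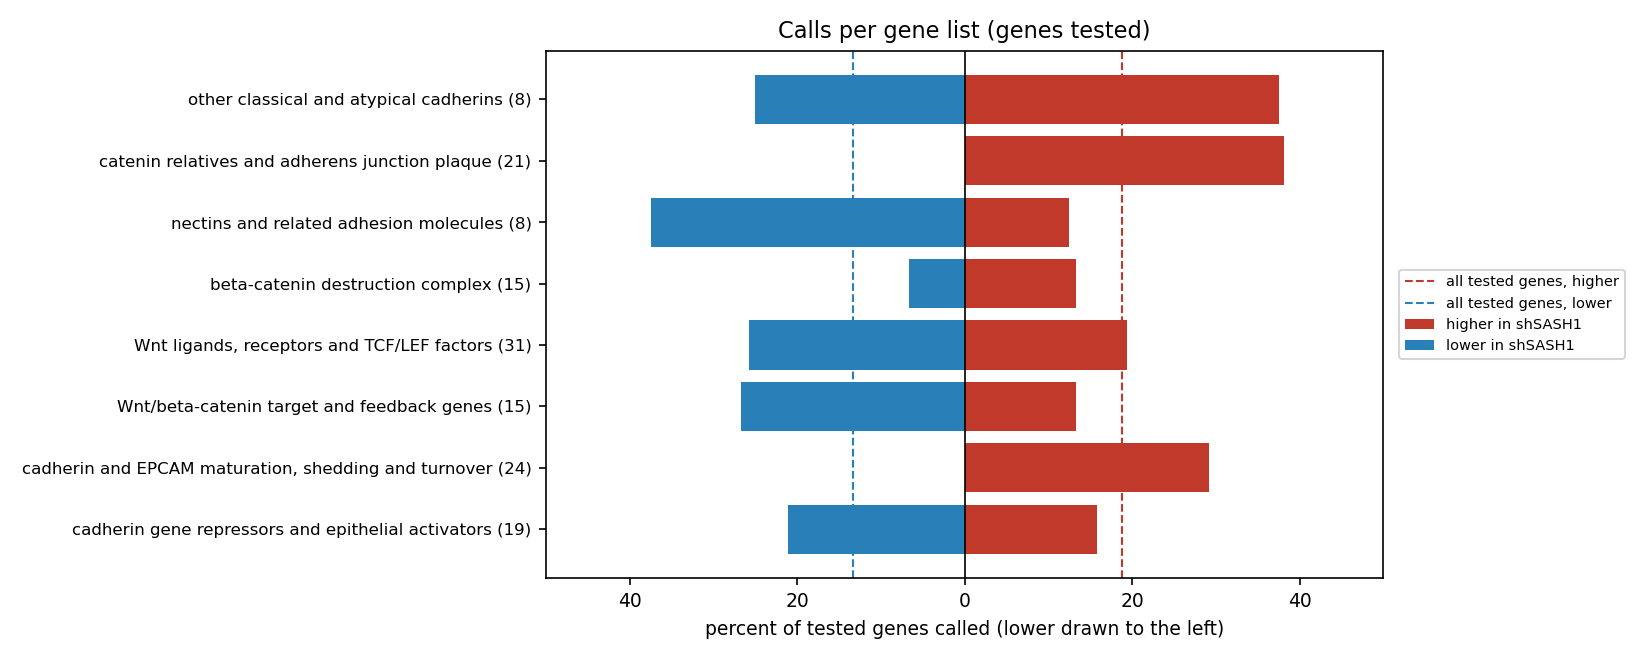
Percent of tested genes called higher (right) or lower (left) in shSASH1 for 8 gene lists, with the number tested in brackets and dashed lines at 18.8% and 13.3% for all tested genes. The plaque and the maturation lists have calls to the right only.

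Target genes and nuclear partners of CTNNB1 included calls in both directions. Of 15 tested Wnt/beta-catenin target and feedback genes, 2 rose and 4 fell (median -0.28), with 4 and 4 after centring on windows. The 6 called are 40% of those tested, near the 32.0% of all tested genes. TCF7, a DNA-binding partner of beta-catenin and also its target, had 3.76 and 3.24 TPM in shSASH1, against 13.3 and 12.3 TPM in shControl, and fell (log2 change -1.62, limma adjusted p = 0.00393). AXIN2, the feedback scaffold most often used as a Wnt reporter, had 4.93 and 8.40 TPM in shSASH1, against 13.4 and 14.5 TPM in shControl (-1.01, adjusted p = 0.0403), but missed the threshold with no filter on low values (adjusted p = 0.0739) and without a variance trend (adjusted p = 0.0625). ASCL2 (-1.01, but adjusted p = 0.0664 with the replicate block) and ID2 (-1.39) fell too. ASCL2 reached the mean of 1 TPM needed for testing only through shControl. Over all alternatives its log2 change ranged from -2.12 to -0.91. Cyclin D1 CCND1 rose (218 and 314 TPM in shSASH1, against 90.1 and 93.3 TPM in shControl; log2 change 1.504, adjusted p = 0.00776), as did BAMBI (0.94). Many signals control CCND1 and ID2, so neither is a measure of Wnt activity alone. The secreted inhibitor DKK1 separated the depleted libraries, with 18.1 and 1.81 TPM in shSASH1 and 13.9 and 13.3 TPM in shControl, and did not pass (adjusted p = 0.445).

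**Figure D5:**
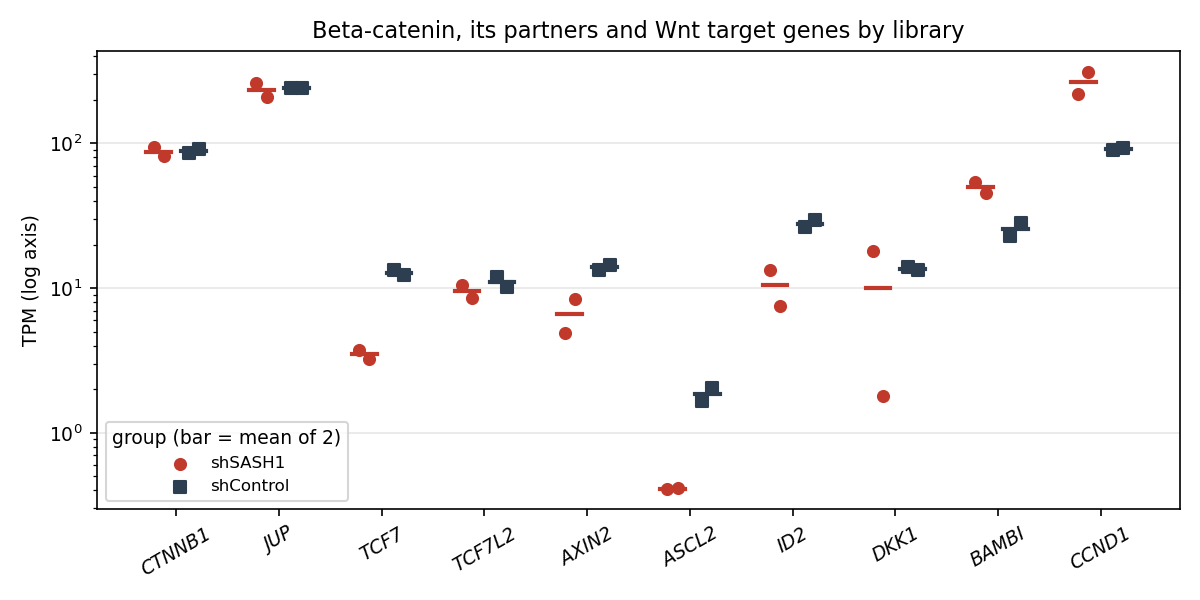
TPM on a log axis for beta-catenin, plakoglobin, 2 TCF factors and 6 Wnt target or feedback genes, with 1 point per library and bars at means, shSASH1 left of shControl. TCF7, AXIN2, ASCL2 and ID2 lie lower in shSASH1, BAMBI and CCND1 higher, and CTNNB1 overlaps.

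TCF7 is shown with sequence because it fell while CTNNB1 was not called and because its own start region could be searched for the letters that TCF/LEF proteins recognise. RefSeq promoter windows (GRCh38.p14) were matched for 3 of the 8 genes, CDH2, CTNNA1 and CTNNB1, and for TCF7. The 250 bases before one of its RefSeq starts, chr5:134123368-134123617, plus strand, read 5′ to 3′ as follows, with capitals marking CAGGTG, an E-box of the kind bound by Snail and ZEB proteins, and AACAAAG, which is the TCF/LEF core CTTTGTT on the opposite strand:
TCF7: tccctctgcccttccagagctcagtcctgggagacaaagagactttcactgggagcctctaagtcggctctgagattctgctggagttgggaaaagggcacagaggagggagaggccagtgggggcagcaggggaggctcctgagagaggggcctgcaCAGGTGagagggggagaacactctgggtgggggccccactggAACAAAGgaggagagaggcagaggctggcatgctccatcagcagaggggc

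The E-box begins 92 bases and the TCF/LEF core 50 bases before that start, and the 2 do not overlap. Searched on both strands of the 250 bases before 35116 RefSeq starts, CTTTGTT was present in 4.50%, its variant CTTTGAT in 2.26% and CAGGTG in 17.5%. The window of the other RefSeq start of TCF7, and those of CTNNB1 and CDH2, held none of the 3 motifs. CTTTGAT was found in overlapping windows of CTNNA1, at the same site in each, and the remaining windows of CTNNA1 held none of the motifs. A match is a run of letters and not a shown binding site.

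Wnt ligands, receptors and TCF/LEF factors had 31 tested genes, of which 6 rose and 8 fell (median 0.06). The share called was 45.2%, against 32.0% of all tested genes. PORCN, the acyltransferase that Wnt ligands need for secretion, had 12.7 and 10.7 TPM in shSASH1, against 31.4 and 31.8 TPM in shControl (log2 change -1.37, limma adjusted p = 0.00370). WNT3A fell, with 0.356 and 0.510 TPM in shSASH1 (7 and 8 rebuilt reads), against 3.93 and 3.06 TPM in shControl. Its change was -1.64 on log2(TPM + 1), which understates changes of low genes (limma adjusted p = 0.00979). The ratio of mean TPM was 0.124. WNT3A reached the mean of 1 TPM needed for testing only through shControl. The receptor tyrosine kinase-like ROR1, a receptor for non-canonical Wnt ligands, rose (1.37, adjusted p = 0.00647). The coactivators that beta-catenin recruits were called higher: BCL9 (0.52, adjusted p = 0.0304), BCL9L (0.40, adjusted p = 0.0115) and PYGO2 (0.36, adjusted p = 0.0200). With centring on windows BCL9 (0.18, adjusted p = 0.289) and PYGO2 (0.017, adjusted p = 0.869) did not pass, and without a variance trend they had adjusted p = 0.0541 and 0.0523. BCL9 also missed the threshold with no filter on low values (limma adjusted p = 0.0503). TCF7L2 had 10.49 and 8.59 TPM in shSASH1 and 11.9 and 10.2 TPM in shControl and was not called, and LEF1 was at no more than 0.0356 TPM in any library.

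In the beta-catenin destruction complex 2 of 15 tested genes rose and 1 fell (median 0.15). The 3 called of 15 are a smaller share than the 32.0% of all tested genes. The kinase GSK3B rose (80.3 and 77.4 TPM in shSASH1, against 51.9 and 50.8 TPM in shControl; log2 change 0.61, limma adjusted p = 0.00552), the 1 that fell was AXIN2, and the kinase CSNK1A1 was called at the threshold (0.26, adjusted p = 0.0496). Of 10 alternatives that kept all libraries CSNK1A1 passed in 1, the filter at a mean of 5 TPM, with adjusted p up to 0.127 in the others. Without a filter or a variance trend 1 gene of this list was higher and 0 lower. The scaffold APC had 16.7 and 15.5 TPM in shSASH1 and 20.6 and 18.4 TPM in shControl (adjusted p = 0.121). CTNNBIP1, which blocks TCF binding by beta-catenin, had 34.0 and 38.8 TPM in shSASH1 and 47.4 and 44.4 TPM in shControl (adjusted p = 0.0581).

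Among 24 tested genes for maturation, shedding and turnover of cadherins and EPCAM, 7 rose and 0 fell (median 0.18). The share called was 29.2%, near the 32.0% of all tested genes. With voom on rebuilt reads the counts were 6 and 2, and with centring on windows 4 and 1. The metalloproteases ADAM15 (188 and 209 TPM in shSASH1, against 120 and 122 TPM in shControl; log2 change 0.71, limma adjusted p = 0.00568) and ADAM17 (0.57, adjusted p = 0.0358) rose, the last not with no filter (adjusted p = 0.0598) or no variance trend (0.0636). ADAM10, the main E-cadherin sheddase, had 43.3 and 47.5 TPM in shSASH1 and 42.4 and 40.1 TPM in shControl and was not called. Of the receptor phosphatases that act at junctions, PTPRM rose, with 5.99 and 5.27 TPM in shSASH1 against 0.293 and 0.147 TPM in shControl (2.44, adjusted p = 0.00390), and so did PTPRJ (1.21, adjusted p = 0.00318). PTPRM reached the mean of 1 TPM needed for testing only through shSASH1. PTPRF and PTPRK of the same list were not among its 4 called genes with the largest change.

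Of 19 tested repressors and activators of cadherin genes, 3 rose and 4 fell (median -0.08), with 4 and 8 by voom on rebuilt reads and 2 and 7 after quantile normalization. The share called in the main fit was 36.8%, near the 32.0% of all tested genes. TWIST1, a repressor of CDH1, was at 3.28 and 2.68 TPM in shSASH1 and listed at 0 in both shControl libraries, and rose (limma adjusted p = 0.00700). TWIST2 fell, with 0.245 and 0.613 TPM in shSASH1 against 19.98 and 19.5 TPM in shControl. TWIST1 reached the mean of 1 TPM needed for testing only through shSASH1, and TWIST2 only through shControl. Snail SNAI1, the classical E-cadherin repressor, had 3.49 and 9.30 TPM in shSASH1 and 2.40 and 2.56 TPM in shControl and was not called (adjusted p = 0.147). Its highest value was in shSASH1 replicate 2, the library with the least CDH1, and the part of this difference in the CDH1 values was not tested. The epithelial factor GRHL3 fell (-1.02, adjusted p = 0.00501), and the epithelial splicing regulator ESRP1 rose (0.46, adjusted p = 0.00730). ZEB1 was at 0.546 and 0.728 TPM in shSASH1 and 0.0788 and 0.135 TPM in shControl, under the level tested.

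The genes whose 4 values ran closest to those of the 2 cadherins were found by the distance of centred log2(TPM + 1) values over the 4 libraries. For CDH1 these were C22orf46 (distance 0.0104 log2 units), RBM14 (0.0274) and TROAP (0.0283). For CDH3 they were LRP1 (0.0416), CCDC154 (0.0447) and PDE4B (0.0466).

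The calls in the group depended on which library was left out. The log2 change of CDH3 was 0.71 without shSASH1 replicate 1 and 0.13 without shSASH1 replicate 2. That of CTNNA1 was 0.15 and 0.083. Without shSASH1 replicate 1, 4 of the 5 genes passed (CDH1, CDH3, CTNNA1 and EPCAM), but so did 7728 of all tested genes. Without shSASH1 replicate 2, CDH1 (log2 change -0.24, limma adjusted p = 0.0370) and EPCAM (-0.20, adjusted p = 0.0271) passed, with 5888 genes in all. Without either shControl library 0 genes of the whole table passed. In each of these fits the spread comes from 1 remaining pair, and the lone library is assumed to vary like it.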

How the data were processed

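Total RNA of 2 shSASH1 and 2 shControl cell samples was sequenced. The authors deposited TPM for each Ensembl gene. The submitters' processing notes name STAR, DESeq2 and hg38, with neither role nor version; counter, gene lengths and strand use are not stated there. All 26518 identifiers matched GENCODE release 29. The 14458 genes averaging 1 TPM or more went into a limma 3.58.1 fit (R 4.3.3) of log2(TPM + 1) with a variance trend and 2.54 prior degrees of freedom; calls needed a two-sided Benjamini-Hochberg adjusted p under 0.05 across all of them. This scale understates changes of low genes.

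TPM keeps no depth. Reads were rebuilt as TPM times exon-union length, scaled so that low values became whole: 88.5% to 89.1% of values up to 20 reads lay within 0.05 of a whole number.

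The members and lists were chosen with earlier results of these data known. From each list up to 4 called genes with the largest change were named, with members' neighbours; FAT1, CDH24, BAMBI, BCL9, BCL9L, PYGO2, JUP, ARVCF, PKP4, CLDN7, TCF7L2, LEF1, DKK1, APC, CTNNBIP1, ADAM10, SNAI1 and ZEB1 were named after their values were seen. Some genes, and the counts of the list of EPCAM relatives and partners, are not reported here. Alternatives were the pseudocount, filter, scaling, variance model, replicate block, each library left out, voom, and centring on 20 Mb windows holding at least 20 tested genes. Tested on data simulated for this comparison under limma's variance model, with 200 of 14458 genes changed, the fit recovered 56.8% of changes of 1 log2 unit and 95.0% of those of 2, and 4.88% of calls were false. With Poisson reads for 14469 genes 13.2% of calls were false. Both simulations gave the groups the same spread, whereas the median log2 SD within a group was 0.126 in shSASH1 and 0.0507 in shControl. They also changed far fewer genes than the 32.0% called here, so their false shares need not hold for these data. Annotation and plots used Python 3.11.15 (scipy 1.17.1, numpy 2.4.6, pandas 2.3.3, matplotlib 3.10.9).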

Additional observations from a re-analysis of the deposited data

How the results depend on the processing

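The number of the 5 tested genes called was 0 under 7 of the 10 settings that kept all libraries, 1 after quantile normalization, 1 with centring on chromosome windows and 2 with voom on rebuilt reads. CDH1 passed with voom (log2 change -0.54), and EPCAM passed with voom (-0.25), quantile normalization (-0.21) and window centring (-0.29). With 1 library left out, the count of these genes ranged from 0 to 4 and the count over all genes from 0 to 7728 (higher 0 to 4543, lower 0 to 3185). Over the same fits CDH1 ranged from -0.70 to -0.24, CDH3 from 0.13 to 0.71, CTNNA1 from 0.083 to 0.15, EPCAM from -0.20 to -0.16 and CTNNB1 from -0.12 to 0.083. CTNNB1 reversed to 0.035 without shControl replicate 2 and to 0.083 without shSASH1 replicate 2. Without shSASH1 replicate 2, JUP (0.11), DKK1 (0.39) and ZFP90 (0.041) were also positive; over the libraries left out JUP ranged from -0.20 to 0.11, DKK1 from -2.38 to 0.39 and ZFP90 from -0.12 to 0.041. PDE4B was -0.079 with window centring. The cause of these changes was not tested. The difference in CDH1 share ranged from -22.1 to -5.10 percentage points, and that in the catenin to cadherin ratio from 0.24 to 0.26, or 0.40 on reads not divided by length; with choices made after seeing the data it was 0.12 with CDH24 and 0.21 with JUP and CDH24. CDH24 itself (0.06) was -0.040 after quantile normalization, -0.020 with voom and -0.027 with window centring, and ranged from -0.10 to 0.23 over the libraries left out. The replicate numbers are only shared numbers: deviations of same-numbered libraries correlated at -0.03 across genes. With the replicate block 0 of the 5 genes and 3929 genes in all passed, CDH1 having adjusted p = 0.0685 and EPCAM 0.199. ASCL2 had adjusted p = 0.0664 in that fit. Depth limits what can be said of CDH2 and CDH11, with at most 1 rebuilt read in a library.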
